A study of Mus musculus with 42 samples.

Results

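The 10 genes described here handle arginine in macrophages: its uptake (Slc7a2), its conversion to nitric oxide (Nos2) and to ornithine (Arg1, Arg2), the recycling of citrulline (Ass1), and the making and breaking down of polyamines (Odc1, Azin1, Srm, Sms, Sat1). They were the rows of the raw count table whose Ensembl identifier maps to these symbols, 10 of 37310 genes. Each symbol matched a single row, and all 10 were among the 11624 genes that passed a filter on low counts and were tested. Nos2 and Arg1 passed it only through the libraries treated with lipopolysaccharide (LPS), where they are high.

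The counts came from 42 RNA-seq libraries of macrophages (BMDM) that were matured from bone marrow in medium conditioned by L929 fibroblasts. Mice labelled KO had both Irf5 alleles floxed and a Cre recombinase driven by the Lyz2 promoter, which acts in myeloid cells. Mice labelled WT were wild-type, and all were young adult males. Cells were Control cells at 0, 2 or 24 h, or had received palmitate (a saturated fatty acid) or LPS (a bacterial cell-wall component) for 2 or 24 h, with 3 libraries in each of 14 groups. The sources used here do not say whether Control cells received the vehicle of palmitate, or whether the 3 libraries of a group are separate animals or cultures. The p-values therefore measure only the spread between these libraries, which may be technical.

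Total counts lay between 2848793 and 7743442 per library, so that 3 counts corresponded to 0.387 to 1.05 CPM (counts scaled to a common library total). Irf5, the targeted gene, was not lower in the libraries labelled KO: it had 1095 to 2373 counts there and 865 to 2009 in those labelled WT. It was called higher in 4 of 7 comparisons between the labels and lower in 0. Counts per gene do not show whether single exons are lost, so the genotypes are named below only by their labels. Lyz2, the gene whose promoter drives the Cre, was lower in the libraries labelled KO in all 7 comparisons. All 8 macrophage markers, Lyz2 among them, were detected. They summed to 12842 to 23595 CPM in WT libraries and to 9800 to 14298 CPM in KO libraries. In each condition the KO sums lay below the WT sums. Lyz2 was a large part of these sums, and its own gap was of similar size. In Control at 2 h the sums were 14459 to 15074 CPM in WT and 10237 to 11054 CPM in KO. Lyz2 alone was 9183 to 9792 CPM and 5065 to 5563 CPM there. The lower KO sums therefore do not show that the other macrophage markers were lower. The 4 fibroblast markers summed to 0 to 58.7 CPM in WT libraries and to 0 to 306 CPM in KO libraries. Their part in any difference between the labels was not tested, and in bulk libraries fewer cells of a type and less RNA per cell cannot be told apart.

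Arginine enters macrophages through cationic amino acid carriers and is then shared between competing enzymes. Inducible nitric oxide synthase splits it into nitric oxide and citrulline, and argininosuccinate synthase starts the route from citrulline back to arginine. The arginases instead yield ornithine, which ornithine decarboxylase turns into putrescine, the first of the polyamines. Inflammatory macrophages of mice are known for strong nitric oxide synthesis, and alternatively activated ones for arginase.

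Promoter sequences were looked up in RefSeq on GRCm38.p6, where 4 of the 10 members matched (Ass1, Odc1, Sms and Sat1). Those of Ass1, Odc1 and Sat1 are shown because each of these 3 passed an LPS test in the same direction under both labels. Their times and directions differed: Odc1 rose at 2 h, Ass1 rose at 24 h and Sat1 fell at 24 h. Each line gives the 250 bases before the annotated start, read 5′ to 3′ on the gene's strand, with the motif that was found in capitals.
Ass1 (chr2:31470020-31470269, plus strand): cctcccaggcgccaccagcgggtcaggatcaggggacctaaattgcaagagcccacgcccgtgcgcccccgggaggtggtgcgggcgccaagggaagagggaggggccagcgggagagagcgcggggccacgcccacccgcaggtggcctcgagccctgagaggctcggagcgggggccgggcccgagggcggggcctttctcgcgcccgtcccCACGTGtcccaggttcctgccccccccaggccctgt
Odc1 (chr12:17544623-17544872, plus strand): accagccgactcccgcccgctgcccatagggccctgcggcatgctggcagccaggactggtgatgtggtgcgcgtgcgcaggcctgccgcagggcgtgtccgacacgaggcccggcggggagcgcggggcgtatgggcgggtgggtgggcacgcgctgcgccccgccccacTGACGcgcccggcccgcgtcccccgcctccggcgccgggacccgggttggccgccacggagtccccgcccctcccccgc
Sat1 (chrX:155216450-155216699, minus strand): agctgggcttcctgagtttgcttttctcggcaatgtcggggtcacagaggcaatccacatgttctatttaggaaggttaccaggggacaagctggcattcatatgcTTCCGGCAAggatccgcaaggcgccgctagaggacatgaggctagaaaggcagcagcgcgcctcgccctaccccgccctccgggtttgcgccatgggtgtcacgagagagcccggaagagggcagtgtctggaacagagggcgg
The promoter windows were searched for 6 motifs, on both strands, from 250 bases before to 50 bases after the start: the kappaB consensus, the E-box CACGTG, the cAMP response element TGACGTCA, its core CGTCA, which lies within it, the C/EBP motif TTGCNNNAA and the interferon response core GAAANNGAA. The Ass1 window held an E-box, 36 to 31 bases before the start, a motif present in 7.15% of the 32851 promoters of the table. The Odc1 window held the core of the cAMP response element on the opposite strand, 79 to 75 bases before the start (20.8% of promoters). The Sat1 window held the C/EBP motif on the opposite strand, 144 to 136 bases before it (9.56%). None of the 3 windows held the kappaB consensus (8.46%), the full cAMP response element (1.79%) or the interferon response core (8.56%). Sms has 2 annotated starts, and both windows held the kappaB consensus. An E-box also lay in an Sms window, 196 to 191 bases before its start. A match describes letters only, and binding was not measured here.

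Levels can be compared between genes only per length, and CPM per kb of annotated exon is used for that here. In Control cells at 24 h, Sat1 had the highest level of the members under the label WT (72.3 ± 1.43 CPM per kb, SD, n = 3), followed by Azin1 (28.9 ± 0.55) and Ass1 (15.3 ± 3.07). Srm, Sms and Odc1 had levels of 6.26, 5.88 and 5.88 CPM per kb, and their libraries overlapped. Arg2 lay below them at 3.54 and Slc7a2 at 0.911, and the libraries of Arg1 (0.194) and Nos2 (0 in all 3) overlapped. After 24 h of LPS the order had changed. Ass1 now led with 120.4 ± 22.9 CPM per kb, Sat1 followed at 45.3 ± 3.84, and Slc7a2 came next after Azin1 at 8.96 ± 0.57. Nos2 reached 3.59 ± 0.872 and Arg1 1.14 ± 0.862 CPM per kb. With the label KO the first 4 places were held by the same genes in the same order, and Nos2 (6.50 ± 2.14) then overlapped with Srm, the next below it.

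**Figure D1:**
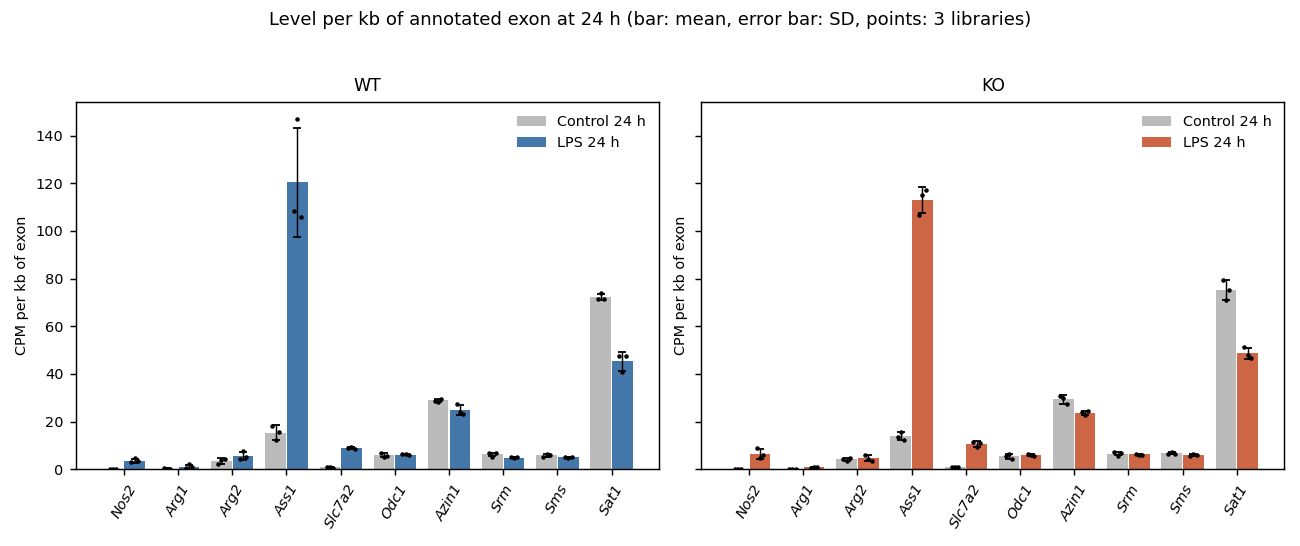
Level of each of the 10 genes in CPM per kb of annotated exon (y axis) in Control and LPS-treated cells at 24 h, under the labels WT (left) and KO (right); bars are means, error bars SD and points the 3 libraries. Ass1 rises from 15.3 to 120.4 CPM per kb in WT and passes Sat1, which falls to 45.3.

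Slc7a2, the inducible carrier that brings arginine into macrophages, rose early under LPS and stayed high. In WT libraries it stood at 10.5, 7.11 and 6.96 CPM in Control cells at 2 h and at 47.6, 40.9 and 36.2 CPM after 2 h of LPS. At 24 h the values were 10.7, 7.89 and 6.41 CPM in Control cells and 82.7, 86.5 and 76.2 CPM with LPS. No treated library came near a Control library at either time. The log2 fold change was 2.34 ± 0.19 (SE) at 2 h (adjusted p = 3.72e-15) and 3.35 ± 0.18 at 24 h (adjusted p = 8.68e-22, by the quasi-likelihood F test of edgeR, adjusted after Benjamini and Hochberg, as are all adjusted p-values below). In KO libraries it was 2.86 ± 0.18 at 2 h (adjusted p = 9.61e-19) and 3.60 ± 0.18 at 24 h (adjusted p = 2.64e-23). The response was larger at 24 h than at 2 h by 0.88 ± 0.19 on the log2 scale over both labels (adjusted p = 0.000142).

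Nos2, the inducible nitric oxide synthase, was almost silent without LPS. Its counts were 0 to 4 in each of the 30 libraries of Control and palmitate-treated cells, and 0 in all 6 palmitate libraries at 24 h. After 2 h of LPS the WT libraries held 19, 34 and 18 counts (6.80, 6.99 and 3.34 CPM) and the KO libraries 14, 52 and 60 (5.31, 10.5 and 12.98 CPM). After 24 h the WT libraries held 75, 122 and 95 counts (12.8, 20.2 and 14.5 CPM) and the KO libraries 263, 112 and 177 (39.2, 20.9 and 25.9 CPM). Every LPS library thus lay above every library without LPS, at both times.
Nos2 was called in all 4 LPS comparisons, but it was among the genes tested only because it is high with LPS, so no p-value is given for it here. Since the Control groups held few counts, folds were taken from summed counts. At 2 h the ratio was 48.9 in WT (exact 95% interval 13.04 to 411) and 35.1 in KO (14.7 to 110.1). At 24 h it was at least 85.9-fold in WT, set against 3 counts over a Control group that held 0, and 161 in KO (55.0 to 785). These intervals and bounds cover counting error only. The response at 24 h was called larger than that at 2 h, with the same limit, and this call was lost without any 1 of 7 Control libraries, which held 0 to 4 counts, and in a fit of only the libraries compared.

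Ass1, which joins citrulline and aspartate in the recycling of arginine, responded late. At 2 h its level was 20.7, 17.5 and 21.2 CPM in Control WT libraries and 16.1, 21.2 and 20.6 CPM with LPS, so the groups overlapped. At 24 h the Control WT libraries stood at 44.1, 29.3 and 37.7 CPM and the LPS libraries at 262, 354 and 256 CPM. The KO libraries at 24 h stood at 32.8, 37.7 and 29.7 CPM in Control and at 258, 278 and 283 CPM with LPS. No overlap remained under either label. The log2 fold change at 24 h was 2.99 ± 0.12 in WT (adjusted p = 4.99e-27) and 3.04 ± 0.12 in KO (adjusted p = 3.71e-27). At 2 h it was -0.01 ± 0.17 (adjusted p = 0.983) and 0.19 ± 0.16 (adjusted p = 0.446). The difference between the times was 2.92 ± 0.14 (adjusted p = 2.17e-23).

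Of the arginases, Arg1, the cytosolic enzyme, was nearly absent. It held 0 to 4 counts in all 36 libraries other than those treated with LPS for 24 h. There the WT libraries held 5, 28 and 14 counts and the KO libraries 10, 12 and 17. The ratio of summed counts to Control was 8.30 in WT (exact 95% interval 3.32 to 26.7) and 5.70 in KO (2.40 to 16.5). These intervals cover counting error only, while the WT LPS libraries spread from 5 to 28 counts. Like Nos2, Arg1 was tested only because it is high with LPS, and no p-value is given. In WT the lowest LPS library (0.856 CPM) lay below the highest Control library (1.12 CPM). The WT call was lost without WT Control library 3 or WT LPS library 2, and the KO call without KO Control library 1 or 2 or KO LPS library 3. At 2 h of LPS there was 1 count over the 3 libraries under each label, too few to compare.
Per kb and with 0.5 counts added to each gene, Nos2 exceeded Arg1 in all 6 libraries treated with LPS for 24 h. The ratio was 6.93, 2.17 and 3.33 in the WT libraries and 12.7, 4.54 and 5.12 in the KO libraries. The mean log2 ratio was 1.88 ± 0.847 (SD) in WT and 2.73 ± 0.809 in KO. The ranges overlapped (two-sided exact permutation test, p = 0.30, with 0.10 the smallest p that 3 against 3 allows).
Arg2, the mitochondrial arginase, was measured with 5 to 81 counts per library. At 2 h the KO libraries stood at 4.52, 4.65 and 6.11 CPM in Control and at 4.94, 16.4 and 12.8 CPM with LPS, with the shallowest library of the series, KO LPS library 1, among the Control values. The WT libraries stood at 6.77, 7.94 and 6.37 CPM and, with LPS, at 10.0, 12.9 and 9.10 CPM, without overlap. The log2 fold change passed the test in KO (1.22 ± 0.34, adjusted p = 0.00453) and did not in WT (0.61 ± 0.32, adjusted p = 0.191). The KO call was lost without KO LPS library 2 (0.87, adjusted p = 0.0971). The difference between the labels was itself 0.61 ± 0.47 (adjusted p = 0.822). At 24 h neither comparison passed (0.62 ± 0.34, adjusted p = 0.146 in WT, and 0.12 ± 0.34, adjusted p = 0.822 in KO). Annotated exons of Vti1b on the other strand cover 285 bp (19.96%) of the Arg2 exons. It is not stated whether counting used the strand, or how reads on shared bases were counted. The overlap may thus have added reads to the Arg2 counts or removed reads from them, which was not tested. Vti1b itself did not pass the test at 2 h of LPS (0.00 ± 0.09, adjusted p = 0.995 in WT, and 0.01 ± 0.09, adjusted p = 0.936 in KO). It rose at 24 h (0.30 ± 0.08, adjusted p = 0.00299, and 0.24 ± 0.08, adjusted p = 0.0201).

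Odc1, ornithine decarboxylase, the entry point of polyamine synthesis, rose early, and at 24 h lay within the Control range. At 2 h its level was 50.1, 63.9 and 51.1 CPM in Control WT libraries and 77.6, 141 and 92.9 CPM with LPS. The KO libraries stood at 40.7, 35.3 and 42.6 CPM in Control and at 85.8, 91.8 and 115 CPM with LPS. Control and LPS libraries did not overlap under either label. The log2 fold change was 0.93 ± 0.15 in WT (adjusted p = 2.31e-06) and 1.31 ± 0.16 in KO (adjusted p = 1.93e-09). At 24 h the LPS libraries (19.3 to 22.1 CPM over both labels) lay within the range of the Control libraries (15.1 to 23.3 CPM). The fold change there was 0.08 ± 0.19 in WT (adjusted p = 0.774) and 0.18 ± 0.20 in KO (adjusted p = 0.512), and the response at 24 h differed from that at 2 h by -0.99 ± 0.18 (adjusted p = 5.92e-06).
Azin1, antizyme inhibitor 1, which protects ornithine decarboxylase from degradation, showed no such peak. It stood at 181, 178 and 185 CPM in Control WT libraries at 24 h and at 171, 152 and 146 CPM with LPS, all 3 below the Control libraries. The fall was small under both labels (-0.21 ± 0.08, adjusted p = 0.0218 in WT, and -0.30 ± 0.08, adjusted p = 0.000969 in KO). The WT call was lost when WT Control library 3, WT LPS library 2 or WT LPS library 3 was left out.
Srm and Sms, the synthases of spermidine and spermine, moved little. Srm stayed between 5.76 and 12.3 CPM in all 42 libraries and passed no test in any comparison. Its fold changes under LPS lay between -0.33 ± 0.23 and 0.30 ± 0.23. Sms was 38.9, 28.1 and 33.8 CPM in Control WT libraries at 2 h and 40.4, 41.3 and 46.8 CPM with LPS. That increase passed the test (0.36 ± 0.11, adjusted p = 0.0117), the one in KO did not (0.16 ± 0.11, adjusted p = 0.330), and the difference between the labels was -0.20 ± 0.16 (adjusted p = 0.822). The WT call was lost without WT Control library 2 or WT LPS library 3, and with all genes that had a count tested. At 24 h the Sms fold changes were -0.24 ± 0.11 (adjusted p = 0.0793) and -0.18 ± 0.11 (adjusted p = 0.202), and the response differed between the times by -0.47 ± 0.11 (adjusted p = 0.000369).
Sat1, which acetylates spermidine and spermine for export or breakdown, fell late. At 24 h it stood at 198, 205 and 198 CPM in Control WT libraries and at 132, 113 and 132 CPM with LPS. The KO libraries stood at 220.0, 197 and 209 CPM and, with LPS, at 142, 133 and 130.01 CPM. Every LPS library was lower than every Control library. The log2 fold change was -0.67 ± 0.08 in WT (adjusted p = 1.38e-10) and -0.63 ± 0.07 in KO (adjusted p = 7.77e-10). At 2 h it was 0.19 ± 0.08 in WT and -0.15 ± 0.08 in KO, and neither passed the test (adjusted p = 0.0639 and 0.160), although the libraries did not overlap. The response at 24 h differed from that at 2 h by -0.67 ± 0.08 (adjusted p = 2.01e-10).

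**Figure D2:**
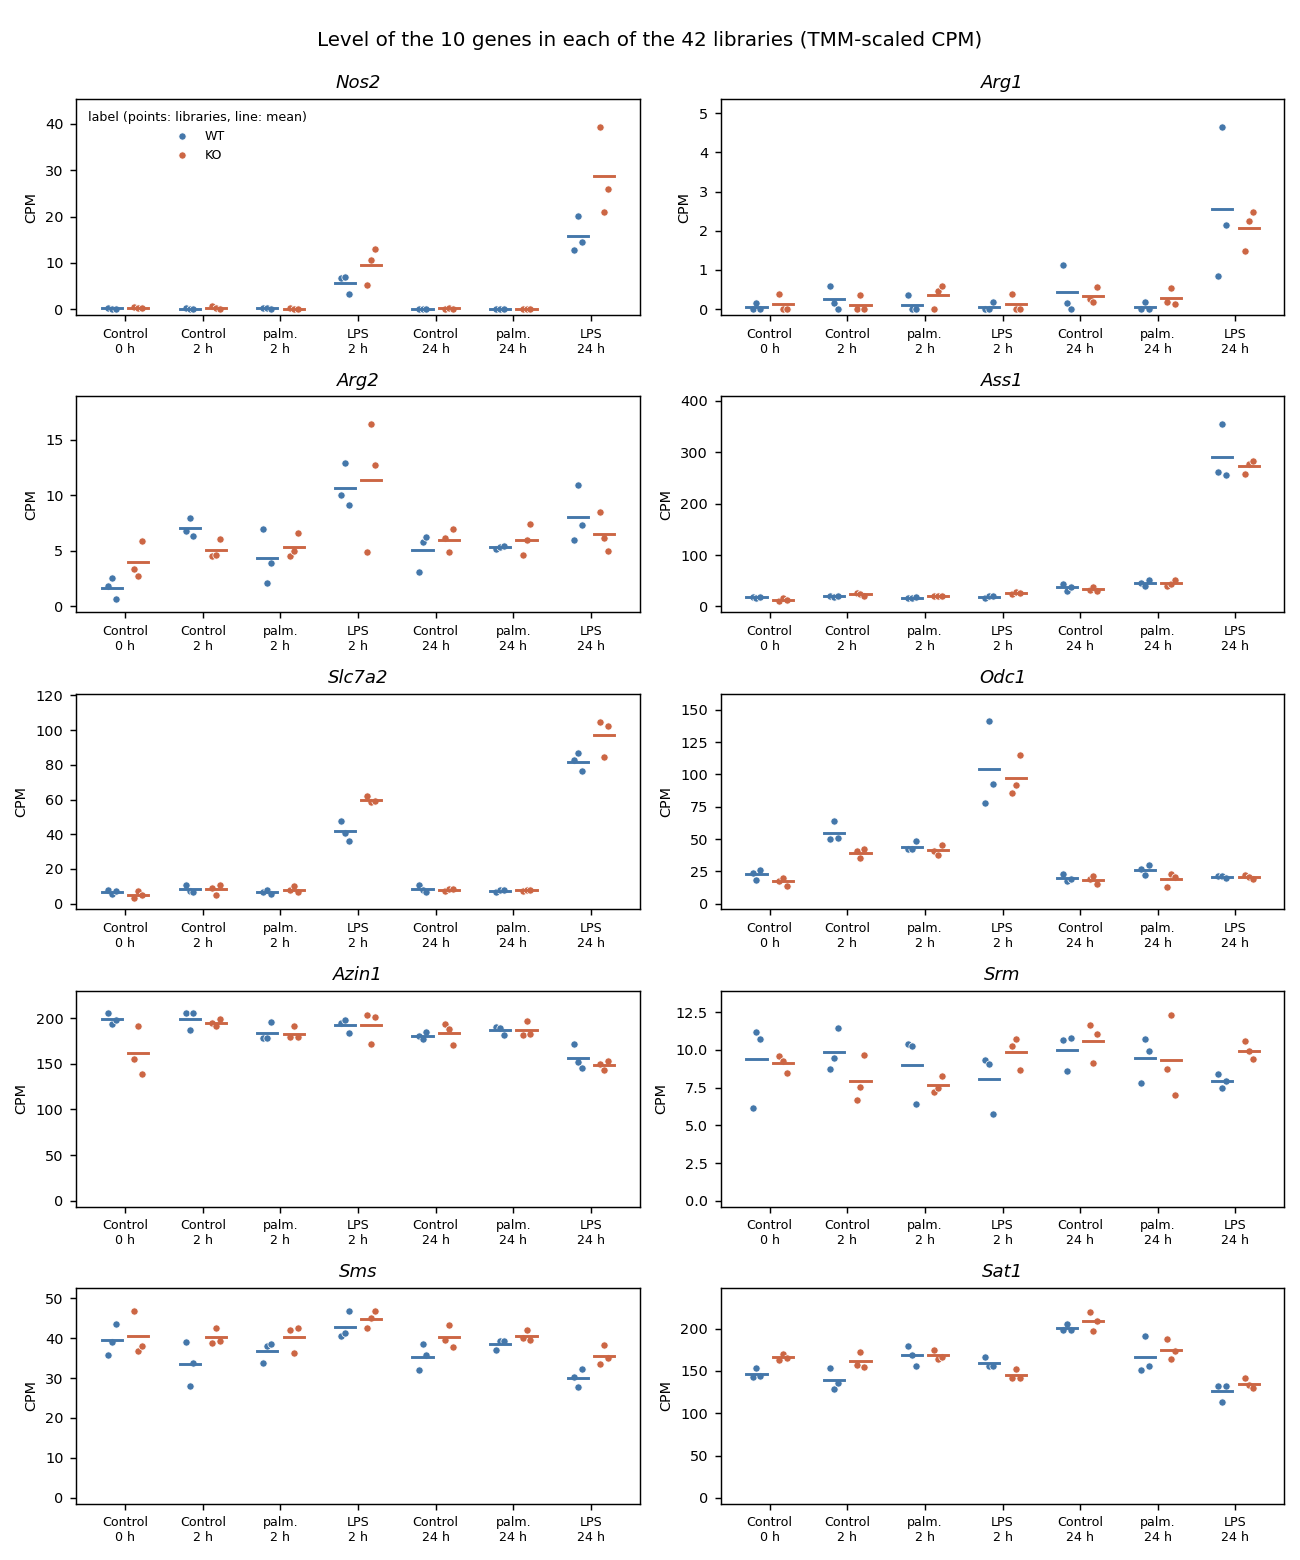
Level of each of the 10 genes (y axis, TMM-scaled CPM, from 0) in Control, palmitate-treated and LPS-treated cells at 0, 2 and 24 h (x axis); points are the 3 libraries of a group, lines their mean, in blue for WT and orange for KO. Nos2, Ass1 and Slc7a2 are highest at 24 h of LPS, Odc1 at 2 h, and Sat1 lies between 113 and 142 CPM at 24 h of LPS in all 6 libraries.

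Counted together, 4 of 10 members rose and 0 fell after 2 h of LPS under each label. Of all genes tested, 14% rose and 9.1% fell in WT, and 14.7% rose and 9.16% fell in KO. Nos2, Slc7a2 and Odc1 were called under both labels, Sms only in WT and Arg2 only in KO. After 24 h, 4 members rose (Nos2, Arg1, Ass1 and Slc7a2) and 2 fell (Azin1 and Sat1) under each label, where 19.6% of all genes rose and 19.9% fell in WT, and 19.9% rose and 21% fell in KO. The median log2 fold change over the members was 0.28 in WT and 0.24 in KO at 2 h, and 0.35 and 0.15 at 24 h, against -0.01 for all genes in each. With Nos2 at its bound, the WT median at 24 h was also 0.35. Between the times, the LPS response of 3 members was larger at 24 h (Nos2, Ass1 and Slc7a2) and that of 4 was lower (Odc1, Azin1, Sms and Sat1), with 21.7% and 24.5% of all genes. Nos2 and Arg1 were among the genes tested only because LPS raised them, so these counts are a description of the members.
Other gene lists moved with LPS as well. The granulocyte precursor markers (7 of 8 detected in WT and 8 of 8 in KO) summed to 58.7 to 65.5 CPM in Control and 339 to 451 CPM with LPS at 24 h in WT, and to 137 to 219 and 331 to 399 CPM in KO. The 7 cell cycle genes, all detected, summed at 24 h to 613 to 641 CPM in Control and 251 to 291 CPM with LPS in WT, and to 636 to 690.3 and 278 to 319 CPM in KO. At 2 h the cell cycle genes were higher with LPS, at 921 to 1132 CPM against 493 to 692 CPM in WT and at 1117 to 1223 CPM against 618 to 686 CPM in KO. These are sums over each list and do not show which of its genes moved. The part of these lists in the changes of the members was not tested.

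**Figure D3:**
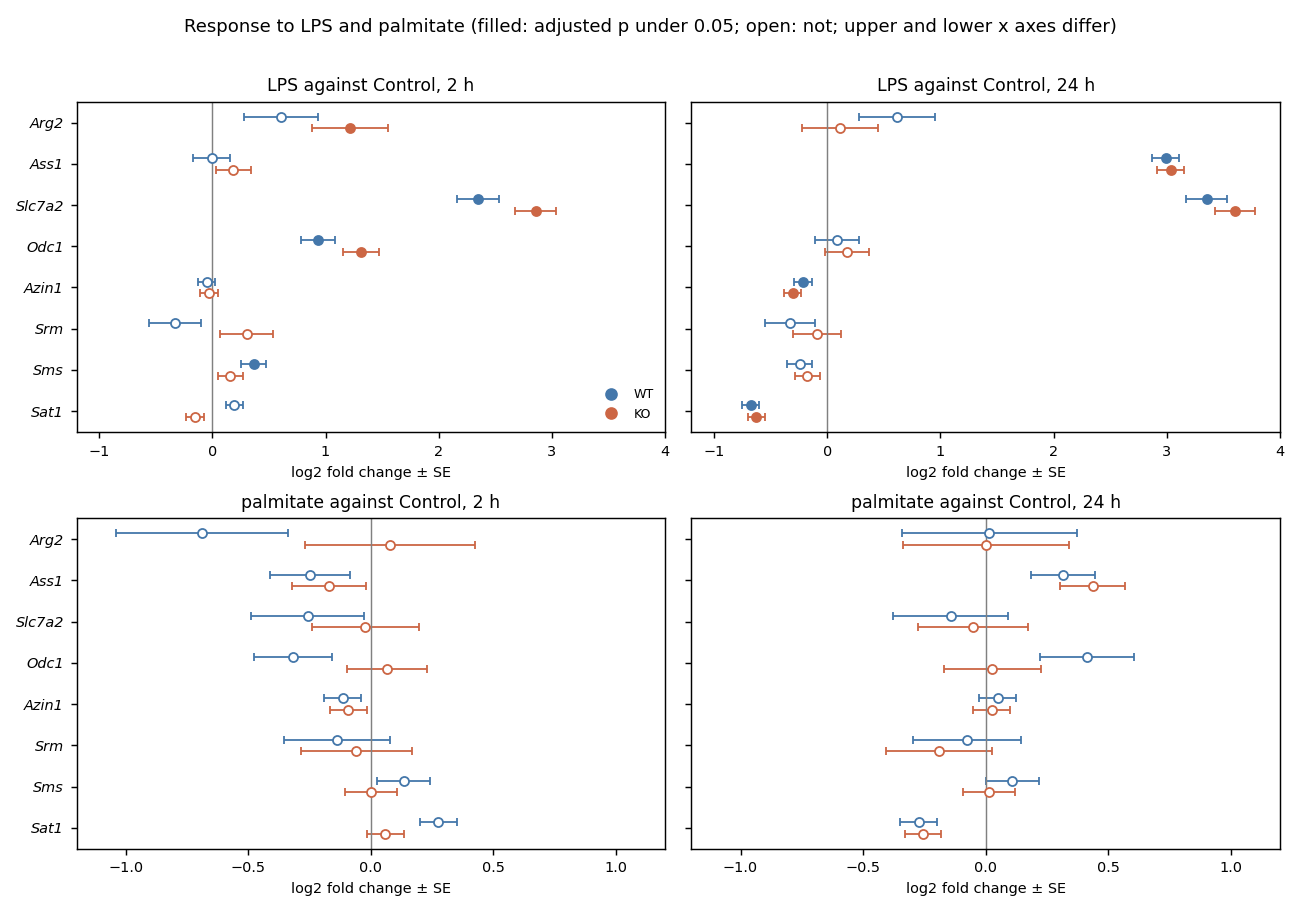
Log2 fold change ± SE (x axis) of 8 members against Control of the same time and label, for LPS (upper panels) and palmitate (lower panels) at 2 h (left) and 24 h (right); filled points passed an adjusted p of 0.05. Nos2 and Arg1 are left out because their Control counts were near 0; 0 points are filled for palmitate.

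No member passed the test in the 4 comparisons of palmitate with Control. In the edgeR fit of the 11624 genes over all 42 libraries, 0 of 10 were called in each, against 0.275% of all genes in WT and 0.112% in KO at 2 h, and 0.852% in WT and 0.877% in KO at 24 h. At an unadjusted p under 0.05 there were 1 member in WT (7.45% of all genes) and 0 in KO (4.61%) at 2 h, and 3 in WT (9.02%) and 2 in KO (7.97%) at 24 h. The DESeq2 Wald test called Sat1 in 3 of the 4 comparisons (adjusted p = 0.0466 at 2 h in WT, and 0.0271 in WT and 0.0466 in KO at 24 h).
Sat1 was the member nearest to a call. At 24 h it stood at 151, 192 and 156 CPM in WT palmitate libraries, all below the lowest Control library (198), and at 187, 164 and 173 CPM in KO palmitate libraries, all below the lowest KO Control library (197). The fold change was -0.27 ± 0.07 in WT (adjusted p = 0.0647) and -0.26 ± 0.07 in KO (adjusted p = 0.0949). Leaving out WT palmitate library 2 brought the WT call (adjusted p = 0.00314). Ass1 had a higher mean in the palmitate libraries at 24 h, at 44.8, 40.4 and 50.9 CPM in WT and 39.7, 44.4 and 50.6 CPM in KO. The WT Control libraries (44.1, 29.3 and 37.7 CPM) overlapped with these, and the KO Control libraries (32.8, 37.7 and 29.7 CPM) did not. The fold change of Ass1 was 0.32 ± 0.13 in WT (adjusted p = 0.397) and 0.44 ± 0.13 in KO (adjusted p = 0.123). In KO at 24 h, edgeR called both Ass1 (adjusted p = 0.0278) and Sat1 (adjusted p = 0.0236) when only the libraries compared were fitted, and Ass1 (adjusted p = 0.0119) when all genes that had a count were tested.
A mean over both labels was added after these values were seen. In it Sat1 fell (-0.26 ± 0.05, adjusted p = 0.000966) and Ass1 rose (0.38 ± 0.09, adjusted p = 0.0128) at 24 h, 2 of 10 members against 2.57% of all genes, and 0 members were called at 2 h against 0.542%. The responses at 24 h and 2 h differed for the same pair, by -0.43 ± 0.07 for Sat1 (adjusted p = 0.000362) and by 0.59 ± 0.15 for Ass1 (adjusted p = 0.0218), with 1.28% of all genes called. The difference of Sat1 was called in all 28 alternatives, and that of Ass1 was lost without any 1 of 8 libraries (adjusted p up to 0.0636). Palmitate and LPS share their Control libraries. Slc7a2, which rose most under LPS at 24 h among the 8 members other than Nos2 and Arg1, changed by -0.14 ± 0.23 in WT and -0.05 ± 0.23 in KO with palmitate at 24 h (approximate 95% intervals -0.60 to 0.31 and -0.49 to 0.39).

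Control cells changed with time in culture, so that each treatment was set against Control of its own time. From 0 to 2 h, over both labels, 3 members rose (Arg2 1.23 ± 0.27, adjusted p = 0.000636, Ass1 0.49 ± 0.11, adjusted p = 0.00129, and Odc1 1.24 ± 0.13, adjusted p = 1.87e-11) and 0 fell, against 9.35% and 7.36% of all genes. Odc1 was 23.5, 18.3 and 25.9 CPM in WT libraries at 0 h and 50.1, 63.9 and 51.1 CPM at 2 h, without treatment. By 24 h it was back at 23.3, 17.5 and 19.2 CPM. From 0 to 24 h, Arg2 (1.14 ± 0.28, adjusted p = 0.00211), Ass1 (1.19 ± 0.11, adjusted p = 3.73e-12) and Sat1 (0.39 ± 0.05, adjusted p = 1.18e-07) rose and 0 fell, against 7.9% and 8.62% of all genes.
The KO libraries at 0 h bear on these values. In the WT libraries alone, Odc1 (1.28 ± 0.17) and Arg2 (2.11 ± 0.40) were called at 2 h and Ass1 was not (14.3% of all genes called), and Arg2, Ass1 and Sat1 were called at 24 h (12.1%). In the KO libraries alone, Ass1, Odc1 and Azin1 were called at 2 h (12.1%), and Ass1 and Sat1 at 24 h (8.17%). The calls of Odc1 at 2 h, and of Ass1 and Sat1 at 24 h, were thus made under each label.

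In the edgeR fit of the 11624 genes over all 42 libraries, members were called between the labels at Control 0 h and in none of the other 6 comparisons. At Control 0 h 2 of 10 were called, against 12.5% of all genes: Arg2 was higher in KO (1.30 ± 0.43, adjusted p = 0.0390) and Azin1 lower (-0.29 ± 0.08, adjusted p = 0.00718). Arg2 stood at 1.81, 2.53 and 0.661 CPM in WT libraries and at 3.34, 2.74 and 5.94 CPM in KO libraries. Azin1 stood at 205, 193 and 198 CPM in WT libraries and at 156, 192 and 139 CPM in KO libraries, so KO libraries 1 and 3 were low and library 2 lay just under the WT range. Both calls were lost without KO library 1 or without KO library 3, and that of Arg2 also without WT library 1 or 3. At 0 h the 4 fibroblast markers summed to 0.529 to 0.905 CPM in WT libraries and to 41.95 to 69.3 CPM in KO libraries, and the 8 granulocyte precursor markers to 50.8 to 61.3 and 81.5 to 87.7 CPM, all detected in both groups. The granulocyte precursor sums were also higher in KO in other conditions. In Control at 2 h they were 20.7 to 37.4 CPM in WT and 70.9 to 137 CPM in KO. Only with LPS at 24 h did the labels overlap (339 to 451 CPM in WT and 331 to 399 CPM in KO). The part of these lists in the difference at 0 h was not tested.
In each of the other 6 comparisons 0 of 10 members were called in that fit, while other settings called Odc1 and Slc7a2, as given below. Of all genes, 0.49% were called in Control at 2 h, 0.146% with palmitate at 2 h, 0.465% with LPS at 2 h, 0.12% in Control at 24 h, 0.0688% with palmitate at 24 h and 0.146% with LPS at 24 h. At an unadjusted p under 0.05 the members numbered 3 (10.1% of all genes), 0 (8.88%), 3 (11.5%), 0 (5.05%), 1 (7.67%) and 2 (9.08%) in that order.
The libraries of the labels did not overlap for 3 members at Control 0 h (28% of all genes), 3 in Control at 2 h (16.9%), 1 with palmitate at 2 h (16.1%), 3 with LPS at 2 h (12.8%), 0 in Control at 24 h (11.6%), 1 with palmitate at 24 h (12.5%) and 3 with LPS at 24 h (13.4%). With LPS at 2 h, Slc7a2 was 58.4 to 62.3 CPM in KO and 36.2 to 47.6 CPM in WT libraries (0.54 ± 0.15, adjusted p = 0.109). That difference was called by DESeq2 (adjusted p = 0.0497) and with all genes that had a count tested (adjusted p = 0.0218), and its adjusted p lay between 0.0218 and 0.333 over 10 alternatives. With LPS at 24 h, Nos2 was 20.9 to 39.2 CPM in KO and 12.8 to 20.2 CPM in WT libraries (0.86 ± 0.31, adjusted p = 0.342, and 0.141 to 0.754 over 9 alternatives). In Control at 2 h, Odc1 was 35.3 to 42.6 CPM in KO and 50.1 to 63.9 CPM in WT libraries (-0.48 ± 0.16, adjusted p = 0.205, and 0.0137 to 0.661 over 10 alternatives). It was called by edgeR with only the libraries compared (adjusted p = 0.0137) and with all genes that had a count (adjusted p = 0.0174).
No member passed the edgeR tests of whether the response to treatment differed between the labels, where 0% of all genes were called for LPS at 2 h, 0.0086% for LPS at 24 h, and 0% for palmitate at 2 h and 0% at 24 h. At an unadjusted p under 0.05 there was 1 member at 2 h, Sat1, for LPS (6.97% of all genes) and for palmitate (4.18%), and there were 0 at 24 h for LPS (5.4%) and palmitate (3.54%), and DESeq2 called 0 in all 4. Under LPS at 2 h the Sat1 fold change was 0.19 ± 0.08 in WT and -0.15 ± 0.08 in KO, opposite in sign. How large a difference remained possible varied by gene. For the LPS response at 24 h the KO minus WT difference was 0.04 ± 0.17 for Ass1 (approximate 95% interval -0.29 to 0.37), 0.25 ± 0.27 for Slc7a2 (-0.28 to 0.77) and 0.05 ± 0.11 for Sat1 (-0.16 to 0.26). For Odc1 at 2 h it was 0.38 ± 0.22 (-0.05 to 0.81).

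Other genes of these pathways were taken from a list of 48 symbols, of which 36 were tested. Nos1 and Nos3, the neuronal and endothelial nitric oxide synthases, and Otc and Cps1 of the urea cycle were among the 12 that were not, with at most 4 counts in any library. After 2 h of LPS, 6 genes of the list rose and 2 fell in WT, where 14% and 9.1% of all genes did, and 5 rose and 2 fell in KO (14.7% and 9.16%). After 24 h, 13 rose and 8 fell in WT (19.6% and 19.9% of all genes), and 12 rose and 8 fell in KO (19.9% and 21%). The median log2 fold change over the 36 genes was -0.01 and -0.04 at 2 h and 0.15 and 0.13 at 24 h.
Gch1, which makes the first intermediate of tetrahydrobiopterin, the cofactor of nitric oxide synthases, rose in all 4 comparisons. It went from 23.1 ± 4.25 to 68.1 ± 3.00 CPM at 2 h in WT (1.55 ± 0.12, adjusted p = 2.83e-15) and from 15.5 ± 1.77 to 42.01 ± 1.27 CPM at 24 h (1.42 ± 0.13, adjusted p = 4.61e-13). In KO the changes were 1.62 ± 0.12 (adjusted p = 5.11e-16) and 1.51 ± 0.13 (adjusted p = 6.17e-14). Qdpr, which regenerates that cofactor, fell at 24 h (-0.44 ± 0.11, adjusted p = 0.000753 in WT, and -0.45 ± 0.11, adjusted p = 0.000755 in KO).
Among arginine carriers, Slc7a1 rose at 2 h in KO (0.72 ± 0.14, adjusted p = 7.52e-05), where WT gave 0.34 ± 0.14 (adjusted p = 0.0788). Slc3a2, the shared heavy chain of several amino acid carriers, rose at 2 h under both labels (0.22 ± 0.07, adjusted p = 0.00852 in WT, and 0.24 ± 0.07, adjusted p = 0.00463 in KO). Nosip, which binds endothelial nitric oxide synthase, fell at 2 h (-0.43 ± 0.13 in WT, adjusted p = 0.00825, and -0.36 ± 0.13 in KO, adjusted p = 0.0324) and rose at 24 h (0.99 ± 0.11, adjusted p = 2.30e-10, and 1.11 ± 0.11, adjusted p = 7.10e-12).
Of the polyamine carriers, Atp13a3, a transporting ATPase, rose slightly at 2 h (0.26 ± 0.07 in WT, adjusted p = 0.00318, and 0.24 ± 0.07 in KO, adjusted p = 0.00817) and fell at 24 h, from 164 ± 2.28 to 68.6 ± 1.23 CPM in WT (-1.25 ± 0.07, adjusted p = 3.02e-20) and from 160.0 ± 6.23 to 59.5 ± 5.68 CPM in KO (-1.43 ± 0.07, adjusted p = 2.74e-22). Atp13a2, its lysosomal relative, rose at 24 h (0.77 ± 0.08 in WT, adjusted p = 4.32e-11, and 0.97 ± 0.08 in KO, adjusted p = 2.45e-14). Smox, spermine oxidase, rose at 2 h in WT (0.57 ± 0.13, adjusted p = 0.000464, with 0.27 ± 0.13 and adjusted p = 0.128 in KO). Mtap, of the salvage of methylthioadenosine, fell at 2 h in WT (-0.44 ± 0.14, adjusted p = 0.0203, with -0.38 ± 0.15 and adjusted p = 0.0525 in KO). Pycrl of proline synthesis fell at 2 h in KO (-0.85 ± 0.31, adjusted p = 0.0418, with -0.08 ± 0.30 and adjusted p = 0.896 in WT). At 24 h Slc25a15, the mitochondrial ornithine carrier, fell in WT (-0.92 ± 0.24, adjusted p = 0.00166, with 0.01 ± 0.25 and adjusted p = 0.986 in KO). Nostrin fell under both labels (-0.58 ± 0.18, adjusted p = 0.00708 in WT, and -0.83 ± 0.17, adjusted p = 9.34e-05 in KO). Ddah2, which breaks down methylated arginines, also fell (-1.58 ± 0.65, adjusted p = 0.0494 in WT, and -2.92 ± 0.64, adjusted p = 0.000196 in KO), from a low level of 3.00 ± 0.904 to 0.359 ± 0.213 CPM in KO. In the tests of whether a response differed between the labels, 0 of the 36 genes were called.
With palmitate, 0 genes of the list were called in 3 comparisons and 1 at 24 h in KO, where Atp13a3 rose by 0.32 ± 0.07 (adjusted p = 0.00538, and 0.24 ± 0.07 with adjusted p = 0.0815 in WT). Between the labels, 5 of 36 were called at Control 0 h, where 12.5% of all genes were, and 0 in the other 6 comparisons. These 5, named after their values were seen, were Slc7a6 and Smox, which were higher in KO, and Gatm, Mtap and Eif5a, which were lower.

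**Figure D4:**
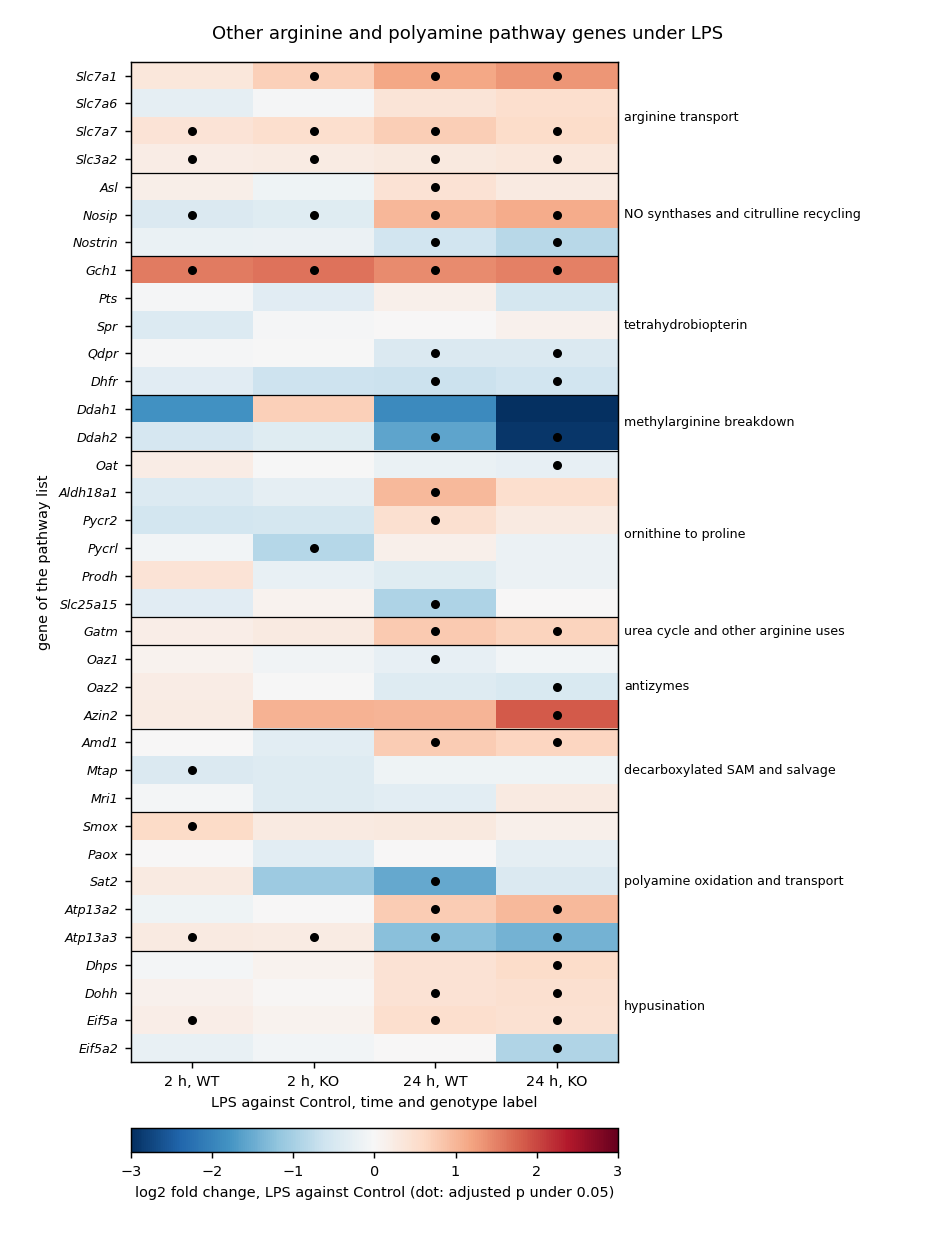
Log2 fold change, on a scale from -3 to 3, of the 36 tested genes of the pathway list (y axis, grouped by role) under LPS at 2 and 24 h and both labels (x axis), in blue for lower and red for higher, with a dot at an adjusted p under 0.05. Gch1 is red in all 4 columns, Atp13a3 turns from pale red at 2 h to blue at 24 h, and Ddah1 exceeds the colour scale at 24 h in KO without passing the test.

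For Nos2, Arg1, Arg2 and Odc1, the genes with the most similar profile were sought by Pearson's r of mean log2 CPM over the 14 groups, among 8518 genes with a symbol and a mean of at least 10 CPM in at least 1 group. The genes share the same libraries, so r is a description here. Nos2 was most like Ifit2 (r = 0.995), Parp14 (0.994) and Slfn8 (0.992), which were each highest in the KO libraries with LPS at 24 h. Odc1 was most like Trib1 (0.986), Egr3 (0.983) and Tubb6 (0.983), each highest in WT libraries at 2 h of LPS. Arg2 was most like Hnrnph3 (0.914), Cep135 (0.912) and Ppp1r12b (0.911). Arg1, at few counts, was most like Psmc1 (0.967), Slamf6 (0.959) and Rpe (0.957), each highest in WT libraries at 24 h of LPS.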

How the data were processed

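The 42 BMDM libraries were made with a SMARTer stranded, ribodepleted total RNA kit and read as paired ends. The submitters' processing notes name fastp 0.19.11, STAR 2.7.3a and mm10, and the authors deposited 1 table of raw read counts per gene. The annotation release and the strand setting of the counting are not given in the sources used here. Columns were matched to groups by name. They carry no replicate number, so libraries 1 to 3 are names only. The members and the gene lists were chosen with earlier results of these data known.

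Counts were tested with edgeR 4.0.16 in R 4.3.3 by the quasi-likelihood test, with TMM scaling, filterByExpr, 1 mean per group over 42 libraries and Benjamini-Hochberg adjustment over 11624 genes, called at 0.05. Fold changes are log2 with SE, and intervals use the normal approximation at 95%. The comparisons numbered 23, and 6 more (Control over time within each label, palmitate over both labels) were added after the data were seen. Besides the 10 members, the text names up to 3 called pathway genes per direction and treatment comparison, those with the smallest adjusted p. Alternatives were DESeq2 1.42.0, its size factors in edgeR, no filter, only the libraries compared, each library left out and, between labels, an unadjusted p under 0.05 with a log2 change over 1. On simulated counts for the LPS comparison at 2 h in WT (11373 genes), 67, 67 and 66 genes were changed 1.5-fold, 2-fold and 4-fold. Of these, 50.7%, 67.2% and 92.4% were recovered, and 9.68% of the 155 calls were false, above the nominal 5%. In a comparison without changes 0 genes were called. Far fewer genes were changed than the 2686 called in the data, so the false share there may differ. Counting error limits Nos2, Arg1 and Arg2 most. No 2 libraries of a group agreed within sampling noise. Gene lengths and overlaps came from GENCODE vM21 and promoters from RefSeq (GRCm38.p6).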

Additional observations from a re-analysis of the deposited data

Results flagged for a closer look

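The LPS response of 7 members differed between 24 h and 2 h by a test of the difference itself over both labels (edgeR quasi-likelihood test, log2 scale). It was larger at 24 h for Nos2 (3.14), Ass1 (2.92) and Slc7a2 (0.88), and lower for Odc1 (-0.99), Azin1 (-0.22), Sms (-0.47) and Sat1 (-0.67). The value of Nos2 rests on Control libraries with 0 to 4 counts and depends on the prior count. The palmitate response differed between the times for Ass1 (0.59) and Sat1 (-0.43), and the Ass1 call was lost without any 1 of 8 libraries.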

How the results depend on the processing

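The 37 calls of members were repeated under 566 alternative values: 530 kept direction and threshold, 36 lost the threshold (33 with a library left out) and 0 reversed, and 27 calls held in every alternative run. The calls of Nos2 and Arg1 are included, although these genes were tested only because they are high with LPS. The single-gene calls that were lost were those of Sms and Arg2 at 2 h of LPS, Arg1 and Azin1 (WT) at 24 h of LPS, Arg2 and Azin1 at Control 0 h, and Nos2, Azin1 and Ass1 between times. The number of members called varied. With DESeq2 there was 1 in place of 0 for palmitate at 2 h in WT, at 24 h in WT and at 24 h in KO, and for the labels with LPS at 2 h. With no filter there was 1 in place of 0 for palmitate at 24 h in KO, and for the labels in Control at 2 h and with LPS at 2 h. With only the libraries compared there were 2 in place of 0 for palmitate at 24 h in KO, 1 in place of 0 for the labels in Control at 2 h, and 1 in place of 2 at Control 0 h, where the unadjusted threshold also gave 1. The mean over both labels gave 2 for palmitate at 24 h. Leaving out a library gave 3 to 5 members for LPS at 2 h in WT (4 with all), 3 to 4 in KO (4), 4 to 6 at 24 h in WT (6), 5 to 6 in KO (6), 6 to 8 for the LPS response between times (7), and 0 to 1 for palmitate at 24 h in WT, 0 to 3 for the labels at Control 0 h, 3 to 5 for Control at 2 h against 0 h (3), 3 to 4 at 24 h (3), and 1 to 2 for the palmitate response between times.

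In the pathway list, leaving out a library gave 5 to 7 calls for LPS at 2 h in WT (8 with all), 4 to 7 in KO (7), 15 to 19 at 24 h in WT (21), 17 to 19 in KO (20), 0 to 2 for palmitate at 24 h in KO (1), 3 to 6 for the labels at Control 0 h (5), 4 to 8 for Control at 2 h against 0 h (9), 2 to 5 at 24 h (4), and 0 to 1 for the palmitate response between times (1). DESeq2 gave 1 in place of 0 for palmitate at 24 h in WT. Irf5 in KO against WT was 0.24 to 0.29 in Control at 2 h and 0.28 to 0.34 with palmitate at 24 h with a library left out, losing its call in some. With only the libraries compared it was 0.31 with palmitate at 24 h, no longer called, and 0.23 in Control at 24 h, now called, as with DESeq2 (0.24). The cause was not tested. No paired analysis was possible because the columns carry no replicate number.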
